A study of Mus musculus with 4 samples.

Results

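On an Affymetrix expression array a probe set is a group of short oligonucleotides that together read 1 transcript, and its signal is named after the gene or genes that the platform annotation lists for it. The measurements described here come from the probe sets for which that annotation lists 2 or more gene symbols. They were chosen by their annotation alone, without regard to signal, and AFFX control probe sets were left out. There were 932 such probe sets among 45101 on the array, beside 34945 that list 1 gene, 9160 with no symbol and 64 controls. Of the 932, 671 list 2 symbols and the longest list holds 18. In all they name 1539 symbols, of which 1484 matched a RefSeq gene. The arrays compare mouse embryonic stem cells of 2 genotypes, wild type (WT) and Suz12KO, the label for cells with Suz12 knocked out, with 2 arrays per genotype. According to the labels, RNA was extracted from 3 clones of each genotype and mixed in equal amounts into 1 pool, so no array shows a single clone. It is not stated whether both arrays of a genotype were hybridised with 1 pool or with separate preparations, so the p-values measure the spread between arrays alone, which may be technical. No strain, passage, culture medium or feeder layer is stated for either genotype.

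The Suz12 protein belongs to the core of Polycomb repressive complex 2, which places a methyl mark on histone H3 at many silent developmental genes. A probe set can list several genes because paralogs or pseudogenes share its target sequence, because a small RNA lies inside the transcript of a host gene, or because neighbouring genes overlap. Its signal then sums what all matching transcripts contribute, and the gene behind a change cannot be read from it alone. A small RNA such as a microRNA or snoRNA is cut out of its host transcript, so a probe set of this kind reads the host RNA and not the mature small RNA. The symbols fell into 4 classes by a fixed order. There were 17 probe sets that list a small RNA, 361 that list paralogs by a shared symbol stem, 94 that list genes with overlapping spans in the GRCm38.p6 annotation, and 460 that met none of these rules. Within the last class 193 listed at least 1 annotated pseudogene, 88 listed genes within 10 kb of each other, and 179 listed genes farther apart or on several chromosomes.

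Sequences of the genes with the clearest differences are given first, since shared names go with shared sequence in several of them. Mature microRNA sequences of all 14 microRNA genes in the lists were found in RefSeq, build GRCm38.p6. The first lines give the microRNAs of the host transcripts that differed most, and miR-92a-3p of a bright host transcript that did not pass the test. Capitals mark the seed, bases 2 to 8, with which a microRNA pairs with its targets. The seed AAGUGCU of miR-295-3p is shared by 5 of 1679 mature microRNAs in the table, among them miR-291a-3p and miR-294-3p of the same cluster. The miR-290a-3p seed, AAGUGCC, was found in 1.
miR-295-3p, chr7:3220815-3220837, plus strand: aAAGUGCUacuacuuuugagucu
miR-295-5p, chr7:3220779-3220800, plus strand: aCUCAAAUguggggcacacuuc
miR-291a-3p, chr7:3218968-3218989, plus strand: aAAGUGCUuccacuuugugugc
miR-294-3p, chr7:3220691-3220712, plus strand: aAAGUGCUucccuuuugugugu
miR-290a-3p, chr7:3218674-3218697, plus strand: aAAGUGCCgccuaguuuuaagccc
miR-675-3p, chr7:142577078-142577099, minus strand: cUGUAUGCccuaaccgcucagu
miR-675-5p, chr7:142577112-142577133, minus strand: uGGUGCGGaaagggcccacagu
miR-92a-3p, chr14:115044476-115044496, plus strand: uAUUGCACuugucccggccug

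Promoter windows, from 250 bases before to 50 bases after the transcript start in the RefSeq table, are given for D7Ertd143e, the annotated host of Mir295, and for paralogs described below. The transcript start used for Rex2 lies inside its annotated gene span, which begins upstream. In the D7Ertd143e window capitals mark the letters of the mature miR-290a-5p and miR-290a-3p, written with T. Of 32851 windows in the RefSeq table, 1 (0.00304%) holds either of these.
D7Ertd143e promoter, chr7:3218534-3218833, plus strand: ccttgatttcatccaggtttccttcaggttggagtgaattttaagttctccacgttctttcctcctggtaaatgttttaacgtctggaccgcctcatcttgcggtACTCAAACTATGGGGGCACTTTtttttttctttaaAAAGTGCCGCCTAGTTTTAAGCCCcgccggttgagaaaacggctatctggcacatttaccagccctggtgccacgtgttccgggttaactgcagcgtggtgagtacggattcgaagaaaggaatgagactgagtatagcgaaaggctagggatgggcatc
In the remaining windows capitals mark CG, which reads the same on both strands. A CG occurs in 94.6% of all windows, with a median of 7. The Xlr4 windows hold 8, 8 and 7, those of Rex2 and Zfp980 hold 5 and 3, and the Sprr2a1 window holds 1, as low a number as in 14.1% of windows, which hold 1 or none.
Xlr4a promoter, chrX:73082458-73082757, minus strand: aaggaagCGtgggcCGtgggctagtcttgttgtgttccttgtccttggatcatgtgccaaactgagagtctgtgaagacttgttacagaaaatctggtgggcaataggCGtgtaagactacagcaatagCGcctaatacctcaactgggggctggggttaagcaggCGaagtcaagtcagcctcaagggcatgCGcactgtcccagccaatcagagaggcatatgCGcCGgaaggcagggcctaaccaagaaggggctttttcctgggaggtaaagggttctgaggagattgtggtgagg
Xlr4b promoter, chrX:73214083-73214382, plus strand: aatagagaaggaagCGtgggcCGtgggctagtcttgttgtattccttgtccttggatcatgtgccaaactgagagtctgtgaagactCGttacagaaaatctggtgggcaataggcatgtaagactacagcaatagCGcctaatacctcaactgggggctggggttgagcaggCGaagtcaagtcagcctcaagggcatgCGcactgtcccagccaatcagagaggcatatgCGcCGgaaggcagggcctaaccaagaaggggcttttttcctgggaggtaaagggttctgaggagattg
Rex2 promoter, chr4:147021600-147021899, plus strand: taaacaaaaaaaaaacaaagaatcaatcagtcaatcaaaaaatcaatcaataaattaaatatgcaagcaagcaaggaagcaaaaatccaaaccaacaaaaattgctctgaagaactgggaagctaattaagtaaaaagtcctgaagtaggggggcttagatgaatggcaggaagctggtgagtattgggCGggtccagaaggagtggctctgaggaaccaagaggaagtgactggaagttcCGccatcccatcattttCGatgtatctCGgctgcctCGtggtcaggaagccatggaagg
Zfp980 promoter, chr4:145670447-145670746, plus strand: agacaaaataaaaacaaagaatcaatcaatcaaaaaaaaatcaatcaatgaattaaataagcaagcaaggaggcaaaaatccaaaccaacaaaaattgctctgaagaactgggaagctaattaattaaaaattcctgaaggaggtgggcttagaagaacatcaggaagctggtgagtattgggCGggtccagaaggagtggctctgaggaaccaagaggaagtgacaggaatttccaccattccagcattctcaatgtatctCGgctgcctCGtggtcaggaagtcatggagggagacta
Sprr2a1 promoter, chr3:92215585-92215884, plus strand: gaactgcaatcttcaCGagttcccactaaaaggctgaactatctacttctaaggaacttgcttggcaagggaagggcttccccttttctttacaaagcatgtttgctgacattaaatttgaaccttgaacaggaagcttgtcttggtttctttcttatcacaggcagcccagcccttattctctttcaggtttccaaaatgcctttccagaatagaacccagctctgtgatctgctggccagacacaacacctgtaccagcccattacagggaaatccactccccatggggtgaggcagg
The copies are alike before the transcript starts as well. Xlr4a and Xlr4b were identical at 288 of 293 aligned bases (98.3%), Xlr4a and Xlr4c at 265 of 270 (98.2%), and Rex2 and Zfp980 at 270 of 297 (90.9%). Rex2 and Zfp600 were identical at 299 of 300 aligned bases, and the windows of Sprr2a1 and Sprr2a2 were identical at 300 of 300. The local alignment of Xlr4a with the unrelated Sprr2a1 spanned 24 columns.

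The array medians lay between 171 and 202 signal units. The highest of 27 probe sets for bacterial spike RNA, taken as unused, lay between 141 and 195, and readings at or under it are called within background. Across probe sets, which are not independent, log2 values correlated at 0.918 between the WT arrays, 0.896 between the Suz12KO arrays and 0.877 to 0.890 between genotypes. Suz12 checked the labels: its brightest probe set read 1097 and 1094 in WT against 217 and 369 in Suz12KO, a difference of -1.89 on the log2 scale (SE 0.27, limma adjusted p = 0.0028). All 10 embryonic stem cell markers were called higher in Suz12KO, with summed signals of 74267 and 74363 in WT against 129033 and 132840 in Suz12KO. Of 22 fibroblast markers, 21 were measured, 0 were higher, 8 were lower, 10 were not called and 3 were not tested. Their summed signal was 83086 and 83885 in WT against 26299 and 26001 in Suz12KO, and most of the sum came from Acta2 (33742 and 33855 in WT) and Tagln (20226 and 21055). Among those not called, Col6a2 differed by 0.70 and Thy1 by 0.41. In every array 4 markers were within background: Lum and Dcn, which were not called, and Postn and Pdgfrb, which were not tested. Of 5 trophoblast markers, Krt8 and Krt18 were lower, Cdx2 (0.78) and Eomes (0.54) were not called and Elf5 was not tested. In such bulk RNA, fewer cells of a type and less RNA per cell cannot be told apart.

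Among the probe sets with several genes, those that passed the test were mostly higher in Suz12KO. Of 932, 711 passed the filter on dim signals, 61 were called higher, 19 were called lower, 631 were not called and 221 were not tested. The calls are those with an adjusted p under 0.05 from limma, fitted on log2(signal + 16) over 31526 probe sets with Benjamini-Hochberg adjustment. Of everything tested 5.58% was called, 2.43% higher and 3.15% lower, whereas the shares here were 11.3%, 8.58% and 2.67%. Probe sets that list 1 gene had 6.1% called, 2.52% higher and 3.58% lower. The median log2 difference was 0.097, beside 0.049 over all tested. At an unadjusted p under 0.05, 160 of the 711 were higher and 62 lower. Ribosomal protein genes gave 73 and 2 of these, and the other probe sets 87 and 60. Such counts for parts of the set, given below, are to be read beside these. They were not made over all tested probe sets, so they cannot be set against the array as a whole. The arrays of the genotypes did not overlap in 390 of the 711 (54.9%), beside 48.3% of all tested, and in all 80 called.

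Most of the higher calls sat among bright probe sets. Of 126 with a mean signal over 10000, a split chosen after seeing the data, 42 (33.3%) were higher and 3 (2.38%) lower. Among all tested probe sets that bright, 22.8% were higher and 9.58% lower. At 10000 or less, 3.25% were higher and 2.74% lower, beside the 2.07% and 3.03% of all tested probe sets in that range. Ribosomal protein genes, described further below, had a median signal of 30357 over their probe sets. The count of higher calls also hung on the scaling, and went from 61 to 10 when each array was centred on its median, with 30 in place of 19 lower. That centring moved the median of all tested probe sets from 0.049 to -0.12. Without a mean-variance trend in the fit, 0 were called in either direction, 76 had an unadjusted p under 0.05 and the smallest adjusted p was 0.215.

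The host transcripts of 2 microRNA genes and of 1 snoRNA were higher without Suz12. Of 17 small RNA probe sets 14 were tested, and limma called 3 (21.4%) higher and 0 lower, beside 2.43% and 3.15% of all tested, with 5 and 0 at an unadjusted p under 0.05. H19 is an imprinted noncoding RNA of embryonic tissues whose first exon holds Mir675, the source of miR-675-3p and miR-675-5p printed above. The probe set that lists Mir675 and H19 read 442 and 374 in WT against 2974 and 2631 in Suz12KO. Both Suz12KO arrays lay well above both WT arrays. The difference was 2.74 on the log2 scale (SE 0.16, limma adjusted p = 1.23e-05).

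D7Ertd143e is a noncoding RNA annotated over the miR-290 to miR-295 cluster, from downstream of miR-290a through Mir295. The cluster gives the most abundant microRNA family of mouse embryonic stem cells, and targets of its AAGUGCU seed include cell cycle inhibitors. Its probe set, which also lists Mir295, read 893 and 919 in WT against 2198 and 1890 in Suz12KO. The genotypes did not overlap, and the difference was 1.16 on the log2 scale (SE 0.14, limma adjusted p = 0.00091). All 10 stem cell markers were higher on the same arrays, and their part in this result was not tested. Snhg8 is a noncoding host gene that carries Snora24, a guide RNA for pseudouridine formation in ribosomal RNA. Its probe set read 9086 and 8995 in WT against 11678 and 11976 in Suz12KO, with no overlap and a smaller difference of 0.39 (SE 0.06, limma adjusted p = 0.0055). That call was lost under median centring (0.22), and a separate probe set for Snhg8 alone differed by 0.17 (adjusted p = 0.56).

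The other small RNA probe sets gave no call. Gas5, a growth-arrest noncoding RNA with many snoRNAs in its introns, was listed with Snord47 and read 1594 and 1593 in WT against 2080 and 1931 in Suz12KO. Its arrays did not overlap, with a difference of 0.33 (limma adjusted p = 0.149). Mir17hg, the host of the miR-17 to miR-92a cluster that promotes proliferation, was listed with Mir92-1 and read 1390 and 1501 in WT against 1637 and 1884 in Suz12KO. It too did not overlap, with a difference of 0.28 (limma adjusted p = 0.289). The probe set for Mir682 and Rpl37a differed by 0.43 and that for Mir692 and the ferritin gene Ftl1 by -0.053. In neither case is the protein-coding gene an annotated host. Mir682 lies on chromosome 13 and Rpl37a on chromosome 1, while the Mir692 genes lie on chromosomes 4, 13 and 17 and Ftl1 on chromosome 7. Among dimmer probe sets, Mir127 with 6430411K18Rik differed by 0.28, and Mir127 reaches past the annotated end of that gene. Snord7 with AI450353 (-1.26) and Mir5130 with Kctd12 (-1.07) were within background in both Suz12KO arrays, so these values are no measure of size. Mir1199 with Misp3 (-0.19) and Dnm3os with Mir214 (-0.50) were within background in all arrays. The 2 probe sets for Mir5136 gave 0.22 and -0.96, the second within background in all arrays. The probe sets for Mir2139 with Klhdc7a and Mir3069 with Scarna13 and a second one for Dnm3os were too dim to be tested. Of the 17 small RNA probe sets, 6 read within background in all arrays.

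Of the 361 paralog probe sets 265 were tested, 25 (9.43%) were higher and 5 (1.89%) lower, beside 2.43% and 3.15% of all tested. The higher calls included Xlr4a, Xlr4b and Xlr4c, near-identical X-linked genes of the Xlr superfamily, which encode proteins related to the meiotic chromosome axis. Their shared probe set read 3.55 and 43.4 in WT against 397 and 381 in Suz12KO. Both WT arrays were within background and both Suz12KO arrays above it, so the rise is given as at least 2.37-fold and is not ranked against others. The fitted difference was 3.57 (SE 0.79, limma adjusted p = 0.028), and the call was lost with a pseudocount of 1 (adjusted p = 0.066) and without the filter (adjusted p = 0.057).

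Other multicopy families of the X chromosome read low in WT and lay above background in some Suz12KO arrays, but did not pass the test. Fthl17 genes, testis-expressed relatives of the ferritin heavy chain, read 75.0 and 25.0 in WT against 290 and 333 in Suz12KO. The arrays did not overlap and the difference was at least 1.89-fold (limma adjusted p = 0.073). Xlr3a, Xlr3b and Xlr3c read 14.4 and 94.0 in WT against 226 and 408 in Suz12KO, a difference of at least 1.85-fold (limma adjusted p = 0.115). The Magea genes, which encode tumour antigens normally expressed in germ cells, read 7.54 and 23.9 in WT against 244 and 111 in Suz12KO, and were not tested because of their low mean. Xlr5 was also not tested. Its probe sets read 17.2 and 11.8 in WT against 35.6 and 351 in Suz12KO, and 14.1 and 8.60 against 111 and 288, so 1 Suz12KO array was much higher than the other in each case. The list of these families was drawn up by symbol and not by position. An entry such as Rbm31y with Gm21379 need not lie on the X chromosome. Of the 15 probe sets in this list 14 were within background in WT and 7 in both genotypes. Of the 15, 6 were tested, 3 had an unadjusted p under 0.05 and 1 was called. These 3, for Xlr4, Fthl17 and Xlr3, were within background in both WT arrays. The filter took the mean over all arrays, so their place among the tested rests on their Suz12KO signals. The tested part of this list thus leans towards rises, and its counts are no separate support for one. In 9 of 15 both Suz12KO arrays lay above both WT arrays and in 1 both lay below. Of all probe sets without a filter 25.7% and 18.7% did so. The exception in the other direction lists Pramel34 and read 60.8 and 68.4 in WT against 4.23 and 7.08 in Suz12KO, all within background. The median difference over the 15, without regard to the filter, was 1.22 on the log2 scale, beside 0.10 for all 932. With 14 of the 15 within background in WT, that median is no measure of size.

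Rex2, Zfp600 and Zfp980 are zinc finger genes of a recently expanded cluster on chromosome 4, and the promoter windows of Rex2 and Zfp600 differ least, at 299 of 300 identical bases. Their probe set read 6567 and 6947 in WT against 15904 and 18042 in Suz12KO, with wide separation of the genotypes. The difference was 1.32 (SE 0.08, limma adjusted p = 1.23e-05). A probe set that lists Rex2 alone read 499 and 600 in WT against 955 and 1351 in Suz12KO, a difference of 1.03 (limma adjusted p = 0.0197), and the one for Zfp980 alone was too dim to be tested. Zfp982, another zinc finger gene, was listed with Gm13212 in the class without paralogs by name. Its probe set read 612 and 781 in WT against 1247 and 1565 in Suz12KO, a difference of 0.998 (limma adjusted p = 0.0118) whose call was lost without the second Suz12KO array (adjusted p = 0.068). A probe set for Zfp982 alone was called higher as well, with a difference of 0.48 (limma adjusted p = 0.0132). The others for Zfp982 alone differed by 0.57 and 0.090 and were not called (limma adjusted p = 0.434 and 0.965). Of 27 probe sets in the zinc finger list 20 were tested, 3 (15%) were higher and 0 lower, beside 2.43% and 3.15% of all tested (3 and 0 also at an unadjusted p under 0.05), and the third lists Zfp706, described below.

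The deepest fall among the 19 lower calls was in Sprr2a, a family of small proline-rich proteins that are cross-linked into the envelope of squamous epithelial cells. The probe set for Sprr2a1 and Sprr2a2, whose promoter windows are identical, read 2074 and 2287 in WT against 332 and 285 in Suz12KO. The genotypes were far apart, with a difference of -2.76 (SE 0.18, limma adjusted p = 2.28e-05). A probe set that lists Sprr2a3 as well read 2364 and 2338 in WT against 1720 and 1130 in Suz12KO, a smaller fall of 0.75 on the log2 scale (limma adjusted p = 0.037). Its call was lost without the first WT array (adjusted p = 0.060) and without the second Suz12KO array (adjusted p = 0.091). The third Sprr2a probe set was dim, at 87.9 and 184 in WT against 127 and 97.6 in Suz12KO, and its arrays overlapped. The epithelial keratins Krt8 and Krt18 were lower on the same arrays, from 14549 and 14513 to 3911 and 3804 for Krt8, while the trophoblast regulators Cdx2 and Eomes were not called, and their part in the Sprr2a result was not tested.

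The other named paralogs changed by less. Prps1 makes the ribose phosphate donor of nucleotide synthesis, and its probe set, shared with Prps1l3, read 3588 and 3113 in WT against 4486 and 4643 in Suz12KO. The genotypes did not overlap and the difference was 0.45 (limma adjusted p = 0.022), but the call was lost without the second WT array (adjusted p = 0.126) and without the first (0.064) or second (0.086) Suz12KO array. The 3 probe sets for Prps1 or Prps1l3 alone differed by -0.0028, 0.083 and 0.32 and were not called. Cisd3, an iron-sulfur protein of mitochondria, shared with Cisd3b, read 1016 and 1004 in WT against 1421 and 1566 in Suz12KO, a difference of 0.56 (limma adjusted p = 0.045) whose call did not survive the loss of any single array (adjusted p from 0.079 to 0.160). Rbx1 is the RING subunit of cullin ubiquitin ligases. One of its 5 probe sets, each also naming Rbx1-ps, read 805 and 749 in WT against 443 and 301 in Suz12KO, a fall of 1.05 on the log2 scale (limma adjusted p = 0.040) that lost its call without the first WT array (adjusted p = 0.165), the second WT array (0.109) or the second Suz12KO array (0.098). Its brightest probe set read 8192 and 7875 in WT against 8996 and 9273 in Suz12KO and was not called (adjusted p = 0.165). Pisd-ps1 and Pisd-ps3, pseudogenes of phosphatidylserine decarboxylase, had 5 probe sets. One read 2773 and 3038 in WT against 1927 and 2258 in Suz12KO, a difference of -0.47 (limma adjusted p = 0.040). That call was lost without the first (-0.54) or second (-0.41) WT array or the first Suz12KO array (-0.36). The other 4 were not called, and the 5 differences lay between -0.59 and -0.20.

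Ribosomal protein genes, which have many processed pseudogenes, made up 37 of the 61 higher calls. Of 110 probe sets that list one, 107 were tested, 37 (34.6%) were higher and 2 (1.87%) were lower, with a median log2 difference of 0.19. Of 99 probe sets that list a single ribosomal protein gene, 22.2% were called higher and 0 lower. Outside these genes, 604 probe sets were tested, of which 24 (3.97%) were higher and 17 (2.81%) lower. The ribosomal set was formed after seeing the data. Its rises were small: the median over the 37 was 0.27, which became 0.10 under median centring and 0.13 under quantile normalization, and 1 and 7 of the 37 then kept their call. Rpl36a, listed with Rpl36al, had the largest rise. It read 25687 and 24174 in WT against 34068 and 40236 in Suz12KO, a difference of 0.57 (SE 0.08, limma adjusted p = 0.00198). A probe set that lists Dnaaf2 as well read 12055 and 13116 in WT against 14344 and 15216 in Suz12KO. Its difference was 0.23 and it was not called (limma adjusted p = 0.084).

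The next largest rises among ribosomal protein genes were in Rpl14 and Rps13. One of 5 probe sets for Rpl14 and Rpl14-ps1 read 14954 and 14478 in WT against 20566 and 19116 in Suz12KO, a difference of 0.43 (limma adjusted p = 0.0028), and 3 of the 5 were called. One of 3 probe sets for Rps13, Rps13-ps4 and Gm15483 read 25554 and 22652 in WT against 32739 and 31543 in Suz12KO. Its difference was 0.42 (limma adjusted p = 0.0049). Neither the Rpl14 nor the Rps13 reading overlapped between genotypes, and both calls were lost under median centring (0.26 and 0.25). Of the 3 Rps13 probe sets 2 were called, and the third, much dimmer, differed by -0.47. A bright probe set for Rps13 and Rps13-ps4 without Gm15483 read 18863 and 20494 in WT against 18564 and 20749 in Suz12KO. That one was not called (-0.0026, limma adjusted p = 0.990).

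The 2 ribosomal calls in the other direction came from probe sets dimmer than their kin. One of 3 probe sets for Rpl5 and Rpl5-ps2 read 1155 and 1380 in WT against 604 and 800 in Suz12KO, a difference of -0.85 (limma adjusted p = 0.028). Without the second WT array or the first Suz12KO array the call was lost (adjusted p = 0.157 and 0.103). The brightest Rpl5 probe set read 60878 and 57473 in WT against 66619 and 66961 in Suz12KO, a difference of 0.18 (limma adjusted p = 0.073). The other lists Rpl13 together with Tax1bp3, which encodes a PDZ protein that binds the cytoplasmic end of membrane proteins. It read 3145 and 3273 in WT against 1733 and 1883 in Suz12KO, a difference of -0.82 (SE 0.10, limma adjusted p = 0.0012). Tax1bp3 alone differed by -0.56 (limma adjusted p = 0.072), while 2 of 3 probe sets for Rpl13 and its pseudogene were called higher.

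Of the 94 probe sets with overlapping genes 70 were tested, and under limma 4 (5.71%) were higher and 0 lower, beside 5.58% of all tested in either direction and 2.43% higher. At an unadjusted p under 0.05 there were 11 higher and 3 lower, beside 160 and 62 of the 711 tested members. Gcat encodes a mitochondrial enzyme of threonine breakdown, the pathway by which mouse embryonic stem cells feed one-carbon metabolism, and Galr3 is a receptor for the neuropeptide galanin. One of their 3 probe sets read 652 and 623 in WT against 1165 and 1388 in Suz12KO, with no overlap and a difference of 0.98 (SE 0.17, limma adjusted p = 0.0081). The second read 595 and 634 in WT against 601 and 581 in Suz12KO, and its arrays overlapped. The third was near background, at 170 and 182 in WT against 121 and 44.1 in Suz12KO. The 3 probe sets thus gave 1 rise and 2 values that did not pass the test.

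The remaining overlapping calls were smaller. Lrch4, a leucine-rich repeat protein, shared with Gm20605, read 1689 and 1483 in WT against 2245 and 2229 in Suz12KO, a difference of 0.50 (limma adjusted p = 0.036). It lost its call without the second WT array (adjusted p = 0.198) or the first (0.118) or second (0.098) Suz12KO array, and a second probe set for the same pair differed by -0.10. Probe sets for Lrch4 alone were not called. One differed by -0.12 (limma adjusted p = 0.862). The dimmer one read 245 and 150 in WT against 117 and 31.0, within background, in Suz12KO (limma adjusted p = 0.377). The 2 remaining calls, at 0.24 each, were probe sets for Rpl23 that entered the class through LOC100862455 and LOC100044627. Their annotated spans overlap in sequence assigned to chromosome 17, while Rpl23 lies on chromosome 11 and overlaps neither. Both calls were lost under median centring (0.074 and 0.073) and without the second WT array (adjusted p = 0.060 and 0.112) or the first Suz12KO array (0.097 and 0.058). One of them was lost without the second Suz12KO array too (0.120). The imprinted pair Snurf and Snrpn, which share 1 transcript, had 6 probe sets, of which 4 were tested and 0 called. The brightest read 12473 and 11487 in WT against 14909 and 13317 in Suz12KO, without overlap, a difference of 0.24 (limma adjusted p = 0.114).

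Of the 460 probe sets that met none of the 3 rules, 362 were tested, 29 (8.01%) were higher and 14 (3.87%) lower, beside 2.43% and 3.15% of all tested. The class still holds symbols too short for the stem rule, such as Tdg and Esd with pseudogenes named for them. When symbols that share their first 3 characters counted as paralogs, that class had 35 calls in place of 30 and this one 38 in place of 43. Those that list a pseudogene had 23 higher and 9 lower of 177 tested. Those with genes within 10 kb had 3 and 0 of 69, and the rest 3 and 5 of 116. Ass1, which joins citrulline and aspartate in arginine synthesis, was among the rises. Its probe set, shared with Gm5424, read 2371 and 2182 in WT against 5760 and 5521 in Suz12KO. The difference was 1.30 (SE 0.09, limma adjusted p = 3.4e-05), whereas the much dimmer probe set for Ass1 alone read 334 and 278 in WT against 337 and 346 in Suz12KO (adjusted p = 0.852).

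Other rises in this class were seen in 1 probe set of several. Zfp706, a zinc finger protein, and Gm10193 had 6 probe sets. One read 46.4 and 256 in WT against 804 and 675 in Suz12KO, a difference of 2.53 (SE 0.59, limma adjusted p = 0.036) that lost its call without either Suz12KO array (adjusted p = 0.142 and 0.089). The 3 brightest, at 2496 to 4403 signal units, differed by -0.0999, -0.13 and -0.093 and were not called. Ubald2, a gene of uncertain role shared with Gm7367, read 3240 and 3311 in WT against 5558 and 5340 in Suz12KO, a difference of 0.73 (SE 0.08, limma adjusted p = 0.00059). Its 3 dimmer probe sets lay between -0.84 and 0.82 and were not called. The chromatin protein Hmgb1, listed with Gm21596, rose in 1 of 4 probe sets, from 3300 and 3462 to 4273 and 4739, a difference of 0.41 (limma adjusted p = 0.025) that was lost without the first WT array (adjusted p = 0.101) or the second Suz12KO array (0.124). Vps25, a subunit of the endosomal ESCRT machinery, is listed with its neighbour Ramp2 and read 1430 and 1404 in WT against 2004 and 2032 in Suz12KO, a difference of 0.51 (limma adjusted p = 0.030). That call was lost without any 1 array (adjusted p from 0.091 to 0.118), and a second probe set for the pair differed by -0.051.

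The falls in this class included Thbs1, Loxl2, Myl6, S100a11 and Abracl. Thbs1, the matrix glycoprotein thrombospondin, is listed with Pald1, a phosphatase-like protein. The probe set read 4775 and 6191 in WT against 839 and 974 in Suz12KO, a difference of -2.57 (SE 0.14, limma adjusted p = 1.02e-05). The 2 probe sets for Thbs1 alone fell as well, with differences of -1.97 and -2.34, while the 1 for Pald1 alone read 559 and 684 in WT against 1069 and 823 in Suz12KO and was not called (0.59, adjusted p = 0.150). Loxl2, which cross-links collagen and elastin, is listed with Gm21451 and read 1547 and 1433 in WT against 678 and 902 in Suz12KO, a difference of -0.92 (limma adjusted p = 0.0125) that was lost without the first WT array (adjusted p = 0.052). A second probe set for Loxl2 and Gm21451 differed by -1.34 and was not called. Myl6, the light chain of nonmuscle and smooth muscle myosin, had 2 probe sets, both lower. The first read 12669 and 11930 in WT against 8207 and 7591 in Suz12KO, and the second 11524 and 12004 in WT against 8684 and 8227 in Suz12KO. Their differences were -0.64 and -0.48 (limma adjusted p = 0.00059 and 0.0024). The much dimmer probe set for Myl6 alone, which was not called, read 567 and 583 in WT against 550 and 589 in Suz12KO. These 2 were the only calls among 20 probe sets of cytoskeletal families, of which 14 were tested, with 0 higher and 2 (14.3%) lower, beside 3.15% of all tested. At an unadjusted p under 0.05 there were 1 higher and 4 lower, beside 160 and 62 of all 711 tested members. The median over the tested was 0.088.

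S100a11, a calcium-binding protein, and Abracl, a regulator of actin, fell too. S100a11, with 2 pseudogenes in its list, read 14381 and 13409 in WT against 9039 and 8622 in Suz12KO, a difference of -0.65 (SE 0.07, limma adjusted p = 0.00038). Abracl, with Gm6314, read 4028 and 4277 in WT against 2051 and 2184 in Suz12KO, a difference of -0.97 (SE 0.09, limma adjusted p = 0.00027). Of 21 measured fibroblast markers, which include Thbs1, 8 were lower on the same arrays and 10 were not called. Their part in these falls was not tested.

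Of 26 probe sets for histone genes 22 were tested, with 1 higher and 1 lower (9.09% together, beside 5.58% of all tested) and a median of 0.037. One of 3 probe sets for H2bc4, H2bc6 and H2bc8 read 1018 and 1122 in WT against 433 and 572 in Suz12KO. The difference was -1.08 (limma adjusted p = 0.0126), and the call was lost without the second WT array (-1.01). Another of the 3 differed by 0.44 and was not called, and the last was not tested. The probe set that lists 10 H2A genes, among them H2ac4 and H2ac6, read 28089 and 24520 in WT against 32490 and 31960 in Suz12KO, a difference of 0.30 (limma adjusted p = 0.032). It was lost under median centring (0.13), and without the second WT array (adjusted p = 0.143), the first (0.121) or the second (0.081) Suz12KO array.

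Several families gave 0 calls under limma, each with too few bright probe sets for a firm statement. The protocadherin alpha genes, cell adhesion proteins of neurons that share constant exons, and the Ugt detoxification genes had 10 probe sets, of which 5 were tested and 1 had an unadjusted p under 0.05, with a median over all 10 of -0.80. The brightest protocadherin probe set read 264 and 251 in WT against 32.5 and 158 in Suz12KO, at least 1.40-fold lower and without overlap (limma adjusted p = 0.277). The brighter Ugt1a probe set read 190 and 156 in WT against 217 and 215 in Suz12KO (limma adjusted p = 0.792). Early embryo and germline families had 23 probe sets, of which 8 were tested and 1 had an unadjusted p under 0.05. Zscan4 genes, marks of a transient embryo-like state of stem cells, read 145 and 304 in WT against 320 and 310 in Suz12KO (limma adjusted p = 0.568). Immune families had 63 probe sets, 33 tested and 4 with an unadjusted p under 0.05. For metabolic enzymes these numbers were 24, 13, and 2 higher and 1 lower. Of all 711 tested members 222 had an unadjusted p under 0.05. Gapdh, with 4 further symbols, read 58208 and 52909 in WT against 65772 and 63194 in Suz12KO, a difference of 0.22 (limma adjusted p = 0.057). The 2 probe sets that list only Gapdh and Gapdh-ps15 went the other way, at -0.48 and -0.44, and were not called. A probe set for 3000002C10Rik alone, one of the further symbols, was called lower, with a difference of -0.38 (limma adjusted p = 0.041).

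Many lists of symbols had more than 1 probe set. There were 166 lists of symbols read by several probe sets, 463 in all. In 127 no probe set was called. In 39 at least 1 was, in 35 of these some but not all, in 4 all, and in 0 were there calls in both directions. The 4, named after their values were seen, were those of Rpl29, Rpl10, Rps16 and Myl6. For Rps6 and Rps6-ps4, the list with the most probe sets, 1 of 9 was called, and their differences lay between 0.0055 and 0.35. Where a listed gene also had a probe set of its own, the reading could be compared. Of the 61 higher probe sets 23 had such a companion, 19 a tested one, 4 had one called higher and 0 one called lower. Of the 19 lower probe sets the numbers were 8, 5, 2 and 0.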

How the data were processed

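The deposited values are probe set signals, an intensity on a linear scale, for 4 Affymetrix arrays. Per the labels' protocols, targets carried biotin and followed Affymetrix's instructions. The summarisation step was not given in the sources used here. After trimming 2% of values at each end, each array's mean was 500.003, so a common scaling precedes the deposited intensity. No genome build is named for the files. Depth does not apply to arrays, and their number limits the precision.

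Symbols came from the platform annotation. Genes were placed, and sequences taken, from RefSeq tables of GRCm38.p6. No protein table was used, so paralogs were judged by the symbol stem alone: the letters before the first digit or, without a digit, before the last letter, if at least 3.

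Values were transformed as log2(signal + 16), which understates changes of dim probe sets. Probe sets dimmer on average than the 30th percentile were not tested, and the rest were fitted with limma 3.58.1 in R 4.3.3 (lmFit, eBayes with a trend, two-sided). Tables were made in Python 3.11.15. Where both arrays of a genotype were within background, the difference is a bound against the highest unused spike per array, except for small RNA probe sets. Their differences are plain log2 values, which are then no measure of size. On simulated data for the comparison of Suz12KO with WT, 200 of 31526 probe sets were changed. Of these, 14% of 2-fold and 34% of 4-fold changes were recovered, and 6 of 54 calls were false. The real data gave 1759 calls, so these rates need not hold for them.

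The members, classes, 13 lists and tests were chosen with earlier results of these data known. Named probe sets were, per class, up to 6 calls with the greatest rise and 6 with the greatest fall, without overlap and above background, and, per list, the 3 largest in each direction or the 2 brightest where 0 were called. Probe sets with predicted or clone names alone were counted and not named. All small RNA probe sets, X-linked families, Snurf with Snrpn, and other probe sets of a named list of symbols were added to account for whole groups. H19 was taken out of the histone list, which it had entered by name, and Ubald2 entered the ubiquitin list by name alone. The split at 10000, the ribosomal set, the parts of the largest class and paralogs by shared first 3 characters were chosen after seeing the data. The replicate numbers did not pair the arrays. Alternatives were another pseudocount (1 or 64), quantile normalization, median centring, no filter or one at the 50th percentile, only probe sets with symbols, eBayes without trend or robust, a replicate block, leaving out each array, and 1 probe set per list of symbols.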

Additional observations from a re-analysis of the deposited data

How the results depend on the processing

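With 4 arrays the counts of calls moved with the processing, and the cause was not tested. Of the 61 higher probe sets, 60 or more stayed called with a pseudocount of 1 or 64, a filter at the 50th percentile, symbols only or robust estimation. Under quantile normalization there were 35 higher, under median centring 10 higher and 30 lower, and without the filter 36 higher. Of the 19 lower, 19 stayed called under centring and 16 under quantile normalization. Without a trend in eBayes 0 probe sets were called in any class. Leaving out 1 array gave 29 to 54 higher and 13 to 19 lower.

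By class, paralogs went from 30 calls to 19 under quantile normalization, 13 under centring, 19 without the filter and 17 to 26 without 1 array. Overlapping loci went from 4 to 2, 2, 1 and 1 to 5, and the class that met no rule from 43 to 27, 23, 28 and 22 to 36. The small RNA class kept 3 calls under quantile normalization, without the filter and without each array, and had 2 under centring and 0 without a trend. With 1 probe set per list of symbols the calls were 21, 3, 31 and 3 for paralogs, overlapping loci, the largest class and small RNA, and paralogs by shared first 3 characters gave 35 and the largest class then 38.

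A replicate block gave 111 higher and 32 lower probe sets, with 60 paralogs, 8 overlapping loci and 72 of the largest class. The correlation of same-numbered arrays' deviations was 0.0020, so the numbers are only labels. H2aw with Trim17 (0.52) was called there and under no other setting. Gapdh (0.22) was called there, with robust estimation, with a filter at the 50th percentile and without the first WT array (0.29).

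Among the named probe sets, reversals were seen in uncalled ones. Median centring turned Eif1a with Gm4027 from 0.097 to -0.070 and Acot9 with Acot10 from 0.029 to -0.14. Leaving out 1 array gave -0.54 to 0.73 for Eif1a, -0.041 to 0.099 for Acot9, -0.20 to 0.095 for Ftl1 with Mir692, -1.28 to 0.28 for Dnm3os, -0.24 to 0.68 for the brighter Mir5136 probe set and -0.30 to 0.86 for Mir127.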

Other observations

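Of the 932 probe sets 77 list at least 1 gene on chromosome X. Of these 59 were tested, and limma called 6 (10.2%) higher and 0 lower. The shares were 8.58% and 2.67% of all members and 2.43% and 3.15% of all tested. At an unadjusted p under 0.05 there were 22 higher and 1 lower, beside 160 and 62 of the 711 tested members. The median log2 difference among the 59 was 0.24. The 6 were the Xlr4 probe set, 2 for Rpl10, and those for Rpl39, Rpl36a and Prps1, named after their values were seen. All but the Xlr4 probe set also list a gene or pseudogene on another chromosome. Those for Rpl10, Rpl39 and Rpl36a belong to the ribosomal set, of which 34.6% of the tested were called higher. The counts therefore do not describe chromosome X alone. The Xlr4 and Rpl36a probe sets kept their call under median centring, and the other 4 did not.

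The suffix of a probe set's name marks how specific the designers held a probe set to be. The plain suffix _at made up 52.6% of the members, against 77.2% of probe sets with 1 gene, while _s_at, given to probe sets that match several transcripts, made up 15.6% against 5.24%, and _x_at, given where single probes also match unrelated transcripts, 16.2% against 5.83%. Of the tested members, 4.86% of _at, 17.3% of _a_at, 6.67% of _s_at and 11.4% of _x_at were called higher. Over all tested members the share was 8.58%, and over all tested probe sets 2.43%. Median signals of the members differed too, at 192, 1661, 175 and 1254 in the same order. The part of brightness in these shares was not tested. There were 56 members with predicted or clone names alone, and 2 of them were called. In 329 the listed genes lie on several chromosomes. In 254 all 4 arrays read within background.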
